A study of Mus musculus with 8 samples.

Results

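Colonic crypts collected at ZT6 and ZT12, here called late day, were compared with colonic crypts collected at ZT18 and ZT0, here called late night, by bulk RNA sequencing. Zeitgeber time (ZT) counts the hours from lights on, so late day holds the middle and the end of the light phase and late night holds the middle and the end of the dark phase. The libraries were chosen by their time point alone, 4 in each group, and together they are all 8 libraries of the series. The genes are those with a mean of at least 10 normalised counts over the 8 libraries, which are 13503 of the 14247 genes in the table. This division of the day lies 6 h away from the one into a resting phase (ZT0 and ZT6) and an active phase (ZT12 and ZT18), and each group holds 1 resting and 1 active time point.

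The mice of both groups were labelled WT. According to the methods of the study they had a C57BL/6 background, were 2 to 4 months old and were kept in 12 h of light and 12 h of dark with free access to food and water. Crypts were freed from the colon with EDTA and scraping and passed through a strainer of 70 µm, and the labels call the cells colonic epithelial cells. Each time point had 2 libraries, and the labels do not say whether these came from separate mice, so p-values measure the spread between these libraries, which may be technical. By the figure captions of the study, a time point had more mice than it has libraries in the files, and how mice and libraries correspond is not given in the sources used here.

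The molecular clock is a feedback loop of transcription factors that nearly every mammalian cell carries. BMAL1 (gene Arntl) pairs with CLOCK or NPAS2 on E-boxes and activates the Period, Cryptochrome, REV-ERB (Nr1d1, Nr1d2) and PAR bZIP (Dbp, Tef) genes, whose products then repress the activators or pass the rhythm on through D-boxes and ROR elements. In the gut, feeding adds a daily signal to that of the light, and the epithelium is renewed throughout life by dividing cells in the lower crypt. A comparison of late day with late night therefore asks which crypt genes are set apart by the time between midday and dusk against the time between midnight and dawn.

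Stretches of promoter are shown here because members of the clock with opposite timing, and genes outside it that are described further on, carry letters that clock factors or the glucocorticoid receptor are known to bind. They come from RefSeq promoters (build GRCm38.p6, 250 bases before to 50 after the start), are written 5′ to 3′ on the strand of the gene, and capitals mark the motif. CACGTG is the E-box and TTATGTAA a D-box, and the stretch of Sgk1 holds the palindromic glucocorticoid element. Ciart carried 3 E-boxes, Per3 carried 2 D-boxes, and the other genes shown carried 1 motif in the stretch printed. The genes shown are a selection. Lamp1, Hsph1, Casp1 and Ttk, also described further on, and Sgk1 carried E-boxes that are not printed, and 11.5% of the genes tested with a promoter carried one.
Ciart, chr3:95882324-95882359, minus strand: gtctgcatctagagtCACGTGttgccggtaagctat
Ciart, chr3:95882252-95882301, minus strand: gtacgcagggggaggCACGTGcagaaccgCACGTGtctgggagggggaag
Per3, chr4:151044848-151044885, minus strand: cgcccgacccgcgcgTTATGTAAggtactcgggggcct
Per3, chr4:151044801-151044838, minus strand: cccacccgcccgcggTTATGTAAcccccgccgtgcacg
Cry1, chr10:85185094-85185129, minus strand: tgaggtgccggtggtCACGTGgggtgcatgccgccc
Tef, second start, chr15:81811261-81811296, plus strand: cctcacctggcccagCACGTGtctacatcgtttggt
Per1, chr11:69098768-69098803, plus strand: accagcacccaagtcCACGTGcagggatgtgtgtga
Cipc, chr12:86947311-86947342, plus strand: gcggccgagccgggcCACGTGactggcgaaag
Slc9a3, chr13:74121311-74121346, plus strand: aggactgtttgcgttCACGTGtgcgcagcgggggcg
Sgk1, chr10:21993686-21993730, plus strand: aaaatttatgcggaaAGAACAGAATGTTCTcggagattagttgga

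Before the results, the libraries were compared. Total reads ranged from 14722342 to 17492669 in late day and from 17522075 to 25159440 in late night, so the groups did not overlap (exact two-sided permutation test, p = 0.0286, the smallest that 4 against 4 libraries can give); its part in the results was not tested. The mitochondrial genome took 13.3% ± 6.95 of the counts in late day and 16.0% ± 5.94 in late night (SD, n = 4 each; exact two-sided permutation test, p = 0.514). Within late day this share was 19.2% and 19.4% at ZT6 but 6.68% and 7.85% at ZT12, the lowest of the 8 libraries. In late night it was 22.2% and 9.80% at ZT18 and 12.2% and 19.8% at ZT0. The part of this split in the results was not tested. The markers of epithelium were high and even, with sums of 254090 to 340500 normalised counts, as the label of the cells has it. ZT12 replicate 1 and ZT0 replicate 2 stood apart by markers of other cells. The 10 fibroblast markers summed to 3022 normalised counts in ZT12 replicate 1 and to 792 in ZT0 replicate 2, against 7.24 to 196 in the other 6 libraries, and the 9 B and plasma cell markers found summed to 2984 in ZT0 replicate 2. Cd3d, Cd3e and Trac of T cells, Cdh5 and Tek of endothelium, Lum and Mgp of fibroblasts and Tyrobp of myeloid cells each had a mean under 10. In bulk samples, fewer cells of a type and less RNA per cell cannot be told apart.

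Among the genes that limma called between late day and late night, most belonged to the clock. Across the 13503 genes, 13 genes were called (limma, adjusted p under 0.05), which is 0.0963% of those tested. Of these, 9 rose in late day (0.0667%) and 4 rose in late night (0.0296%). The clock lists held 22 genes that could be tested and supplied 9 of the 13. Hlf, Bhlhe41 and Fbxl21 were not analysed here. The 4 other called genes were Ccdc116, Tns4, Tppp3 and Gm42047. Without ZT12 replicate 1 and ZT0 replicate 2 together, 0 genes were called by limma with 679 genes at an unadjusted p under 0.05, against 1189 with all 8 libraries. On recovered reads, edgeR called 6 genes and DESeq2 104, or 0.77% of those tested, including all 13. Clock genes were 12 of these 104, and 72 were in none of the lists used here. In simulated reads with 200 changed genes, DESeq2 also called 51 unchanged genes and limma 14.

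**Figure D1:**
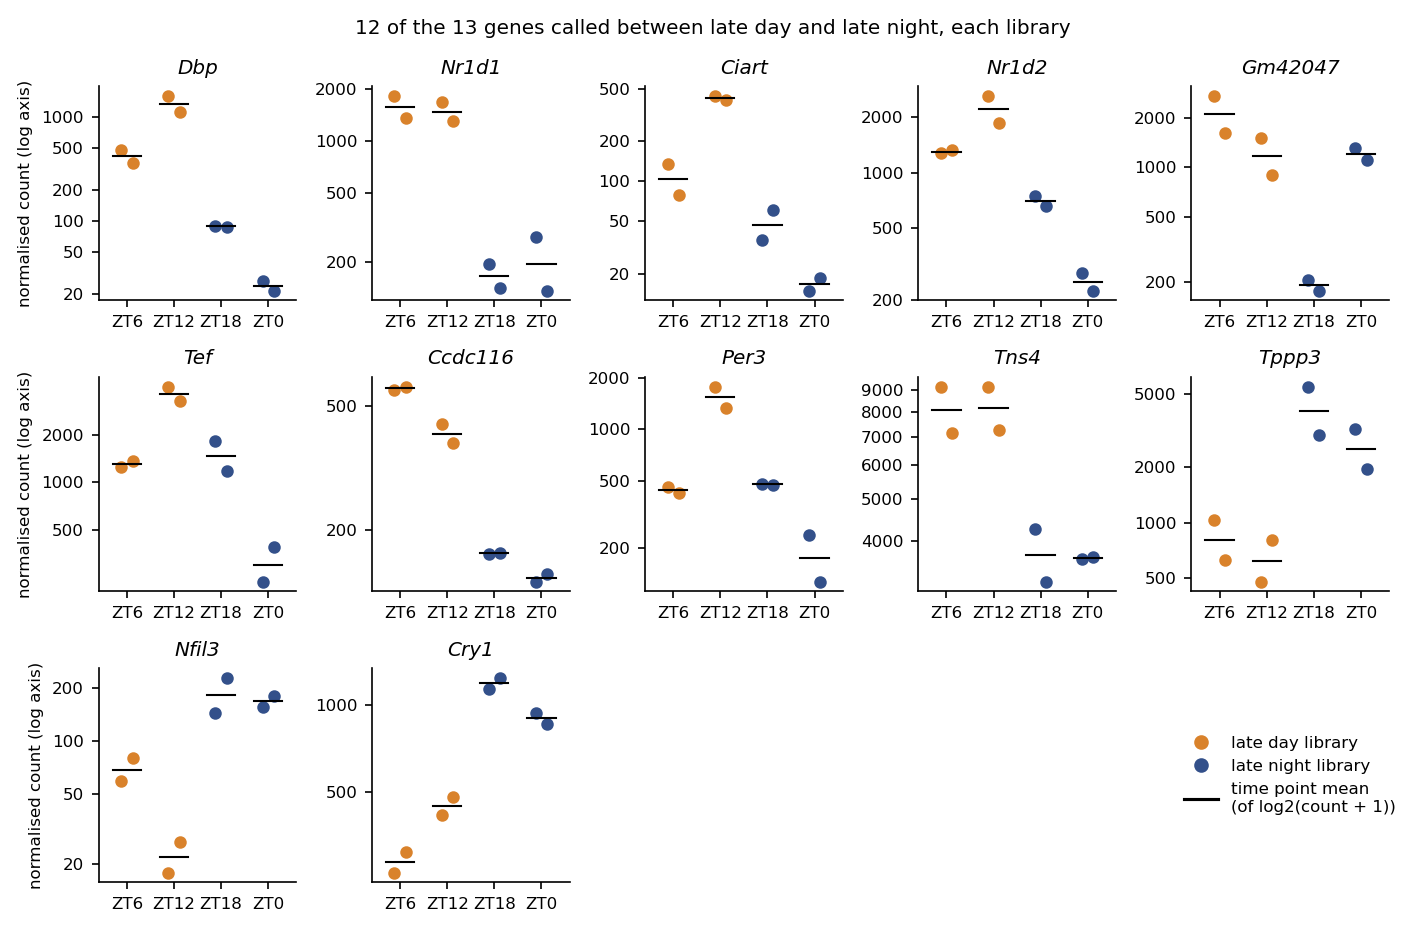
Normalised counts (log axis, a scale for each gene) of 12 of the 13 called genes in each library, ordered ZT6, ZT12, ZT18 and ZT0; orange points are late day, blue points late night, and black lines are time point means taken on the log2(count + 1) scale. For 9 genes the 4 and 4 libraries do not overlap, and for Tef, Gm42047 and Per3 they do.

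Dbp encodes a PAR bZIP activator that binds D-boxes (ENSMUSG00000059824, GRCm38 chromosome 7, 45705088 to 45710203, plus strand). It had 482 and 361 normalised counts in the ZT6 libraries, 1593 and 1113 at ZT12, 89.7 and 88.5 at ZT18 and 26.8 and 21.5 at ZT0. Every late day library lay above every late night library. The difference of late day minus late night was 3.98 on the log2(normalised count + 1) scale (SE 0.21, limma adjusted p 0.000164), or 15.7-fold. Sphk2 overlaps Dbp on the opposite strand, and strand use in counting is not given in the sources used here.

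Nfil3, a bZIP repressor that competes with DBP for D-boxes (chromosome 13, 52967209 to 52981073, minus strand), was higher in late night. Its libraries had 59.1 and 79.4 normalised counts at ZT6, 17.8 and 26.5 at ZT12, 144 and 228 at ZT18 and 156 and 180 at ZT0. The lowest late night value was above the highest late day value, and the gene was 4.40-fold higher in late night (log2 difference -2.14, SE 0.29, limma adjusted p 0.0434). The activator and the repressor of the D-box were highest in opposite groups.

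Tef, the other PAR bZIP gene measured (chromosome 15, 81802421 to 81826863, plus strand, with Gm17597 on the opposite strand), was called as higher in late day with a log2 difference of 1.69 (SE 0.20, limma adjusted p 0.0227). Its libraries overlapped between the groups, with 1259 and 1354 normalised counts at ZT6, 4001 and 3239 at ZT12, 1830 and 1182 at ZT18 and 237 and 390 at ZT0. The difference came from ZT12 against ZT0, where it was 3.56, and between ZT6 and ZT18 it was -0.17.

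Nr1d1 encodes REV-ERB alpha, a nuclear receptor that represses Arntl (chromosome 11, 98767932 to 98775333, minus strand, with Thra on the opposite strand). It had 1830 and 1352 normalised counts at ZT6, 1685 and 1306 at ZT12, 197 and 142 at ZT18 and 280 and 137 at ZT0. The 2 time points of each group were alike, and the difference was 3.07 (SE 0.24, limma adjusted p 0.00198), or 8.41-fold. Its paralogue Nr1d2 (chromosome 14, 18204054 to 18239127, minus strand) had 1278 and 1322 at ZT6, 2630 and 1874 at ZT12, 743 and 660 at ZT18 and 283 and 226 at ZT0. The groups again did not overlap, and the difference was 2.01 (SE 0.15, limma adjusted p 0.00192). Between them, Nr1d1 was at nearly the same level at ZT6 and ZT12, whereas Nr1d2 was highest at ZT12 in both libraries.

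Rora, a nuclear receptor that activates from ROR elements, was near the floor, with 3.70 to 29.0 normalised counts in late day and 6.43 to 20.5 in late night, and its log2 difference of 0.05 (SE 0.69) turned negative under quantile normalisation and without each of 4 libraries in turn.

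Cry1, the only period or cryptochrome gene with groups that did not overlap, encodes a repressor of BMAL1 and CLOCK (chromosome 10, 85131700 to 85185064, minus strand). It had 265 and 312 normalised counts at ZT6, 419 and 481 at ZT12, 1137 and 1239 at ZT18 and 935 and 863 at ZT0. All late night libraries were higher than all late day libraries, by 2.87-fold (log2 difference -1.52, SE 0.13, limma adjusted p 0.00347). Its stretch with an E-box is printed above, beside those of Ciart and Per1, whose levels were highest at ZT12.

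Per3 (chromosome 4, 151003652 to 151044665, minus strand, overlapping Camta1 on the same strand) was called as higher in late day at 1.51 (SE 0.21, limma adjusted p 0.0458). Its groups overlapped, with 457 and 420 normalised counts at ZT6, 1784 and 1341 at ZT12, 480 and 470 at ZT18 and 238 and 127 at ZT0. Only the ZT12 libraries stood above the others. Per1, with 338 and 403 at ZT6, 1570 and 1170 at ZT12, 574 and 563 at ZT18 and 392 and 265 at ZT0, had a log2 difference of 0.72 and was not called by limma (adjusted p 0.371), though DESeq2 called it (adjusted p 0.0468). Per2 was high in 1 time point of each group, with 2068 and 1692 at ZT12 and 1599 and 1923 at ZT18, against 411 and 302 at ZT6 and 487 and 716 at ZT0. Its log2 difference was -0.32 (SE 0.17, limma adjusted p 0.619). Cry2 was likewise highest at ZT12 and ZT18, with 936 and 925 and with 1029 and 837 normalised counts, and differed by -0.02 between the groups, a sign that turned without ZT0 replicate 2, ZT6 replicate 1 or ZT18 replicate 1.

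Ciart encodes a repressor of BMAL1 and CLOCK (chromosome 3, 95878503 to 95882251, minus strand, with C920021L13Rik on the opposite strand). It had 136 and 78.3 normalised counts at ZT6, 441 and 407 at ZT12, 35.9 and 60.3 at ZT18 and 14.9 and 18.7 at ZT0. The groups did not overlap and the difference was 2.86 (SE 0.31, limma adjusted p 0.0134). Cipc, an inhibitor of CLOCK, was highest at ZT12 (5318 and 4372) and lowest at ZT0 (1750 and 1952), with a log2 difference of 0.69 that limma did not call (adjusted p 0.200) and DESeq2 did (adjusted p 0.000329). Bhlhe40 differed by 0.17.

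Limma called none of the activators, and DESeq2 called 1, Arntl (adjusted p 0.00085). Arntl had 679 and 557 normalised counts at ZT6, 301 and 436 at ZT12, 649 and 799 at ZT18 and 1597 and 1038 at ZT0. ZT0 was highest and ZT12 lowest, while ZT6 and ZT18 overlapped, and the log2 difference of -1.03 (SE 0.19) had a limma adjusted p of 0.243. Npas2 was likewise highest at ZT0 and lowest at ZT12, with 998 and 783 at ZT0 and 204 and 409 at ZT12, and differed by -0.75 (SE 0.23, limma adjusted p 0.474). Clock ranged from 1401 to 2315 over the libraries, with both extremes at ZT0, and differed by 0.01 (SE 0.16), of either sign across alternatives. Among the genes that modify clock proteins, Csnk1d, Csnk1e and Btrc differed by -0.03, -0.14 and 0.28, and none of the 4 tested had an unadjusted p under 0.05. In all, 13 of the 22 clock genes had an unadjusted p under 0.05, where 8.81% of all genes tested did, and the same number had it without ZT12 replicate 1 and ZT0 replicate 2.

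Outside the clock lists, limma called 4 genes. Ccdc116 encodes a coiled-coil protein (chromosome 16, 17139064 to 17147229, minus strand, with Ydjc on the opposite strand). Its libraries had 562 and 575 normalised counts at ZT6, 437 and 379 at ZT12, 168 and 170 at ZT18 and 137 and 146 at ZT0. The groups were far apart for their spread, and late day was 3.10-fold higher (log2 difference 1.63, SE 0.15, limma adjusted p 0.00533). Tns4 encodes a tensin, a protein of focal adhesions (chromosome 11, 99065678 to 99089306, minus strand), and had 9132 and 7132 at ZT6, 9143 and 7258 at ZT12, 4258 and 3214 at ZT18 and 3623 and 3672 at ZT0. It was 2.21-fold higher in late day (log2 difference 1.14, SE 0.15, limma adjusted p 0.0432), and the 2 differences between opposite times were 1.13 and 1.16.

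Tppp3 encodes a protein that promotes tubulin polymerisation (chromosome 8, 105467493 to 105471526, minus strand). It had 1031 and 630 normalised counts at ZT6, 478 and 800 at ZT12, 5483 and 2998 at ZT18 and 3216 and 1961 at ZT0. Late night was 4.52-fold higher without overlap (log2 difference -2.17, SE 0.27, limma adjusted p 0.0358). Its family member Tppp was lower in late day by a log2 difference of -1.14 (SE 0.16), with 1184 to 2036 against 2434 to 3733 normalised counts, and just missed the threshold of limma (adjusted p 0.0513). The long noncoding Gm42047 (chromosome 8, 121833247 to 121841178, plus strand) shares its strand with the overlapping Gm20388, which leaves its reads uncertain. It had 2719 and 1619 at ZT6, 1514 and 892 at ZT12, 206 and 178 at ZT18 and 1317 and 1112 at ZT0, and only the ZT18 libraries were far below the others.

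Of the genes without overlap that limma did not call, the following had small p-values, and DESeq2 called each of them. In late day, 0610005C13Rik had 383 to 607 normalised counts against 180 to 305 in late night (log2 difference 1.04, limma adjusted p 0.0574). It is an antisense transcript with Bcat2 on the opposite strand, and with strand use not given its reads are uncertain. Higher in late night were Hsph1, a chaperone, Ypel2, Zbtb40, Asf1b, a histone chaperone, and Pold1, the catalytic subunit of DNA polymerase delta, with log2 differences of -1.26, -0.85, -0.92, -1.29 and -0.86 and limma adjusted p-values of 0.0574 to 0.250. In total the libraries of 725 genes did not overlap between the groups (5.37%), of which 369 were higher in late day (2.73%) and 356 in late night (2.64%).

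The comparison pools ZT6 minus ZT18 with ZT12 minus ZT0, and both differences can be set side by side. A limma test of one against the other called 8 genes (0.0592% of those tested, with 7.61% at an unadjusted p under 0.05), among them Per2, Tef, Dbp, Per1, Per3, Gm42047 and Sprr2a1. These calls rested on single libraries and on the model: 0 genes were called without ZT6 replicate 1, ZT6 replicate 2 or ZT12 replicate 2, 2 without ZT12 replicate 1 and 2 without ZT18 replicate 2, 4 without ZT18 replicate 1, 0 without the mean-variance trend and 1 with edgeR (441, 500, 1173, 676, 1188, 1700, 970 and 994 at an unadjusted p under 0.05), against 68 with DESeq2. Without ZT12 replicate 1 and ZT0 replicate 2 together, 4 genes were called and 0 of them were among the 8. For Per2 the difference was -2.31 between ZT6 and ZT18 and 1.66 between ZT12 and ZT0, so that it had opposite signs (difference of the pair -3.97, SE 0.35, limma adjusted p 0.0145). Per1 was of the same kind, at -0.62 and 2.07 (limma adjusted p 0.0460). Dbp was higher in late day in both, by 2.21 and 5.74 (limma adjusted p 0.0368). Sprr2a1, a small proline-rich protein of the epithelial surface that overlaps its close copy Sprr2a2 and is therefore uncertain, was at 1.60 and -0.95 (limma adjusted p 0.0368). Tested in the same way, Nr1d1, Ccdc116, Tns4 and Tppp3 had pair differences of 0.32, 0.22, -0.03 and -0.31, with standard errors of 0.49, 0.31, 0.30 and 0.55, and were not called by limma.

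**Figure D2:**
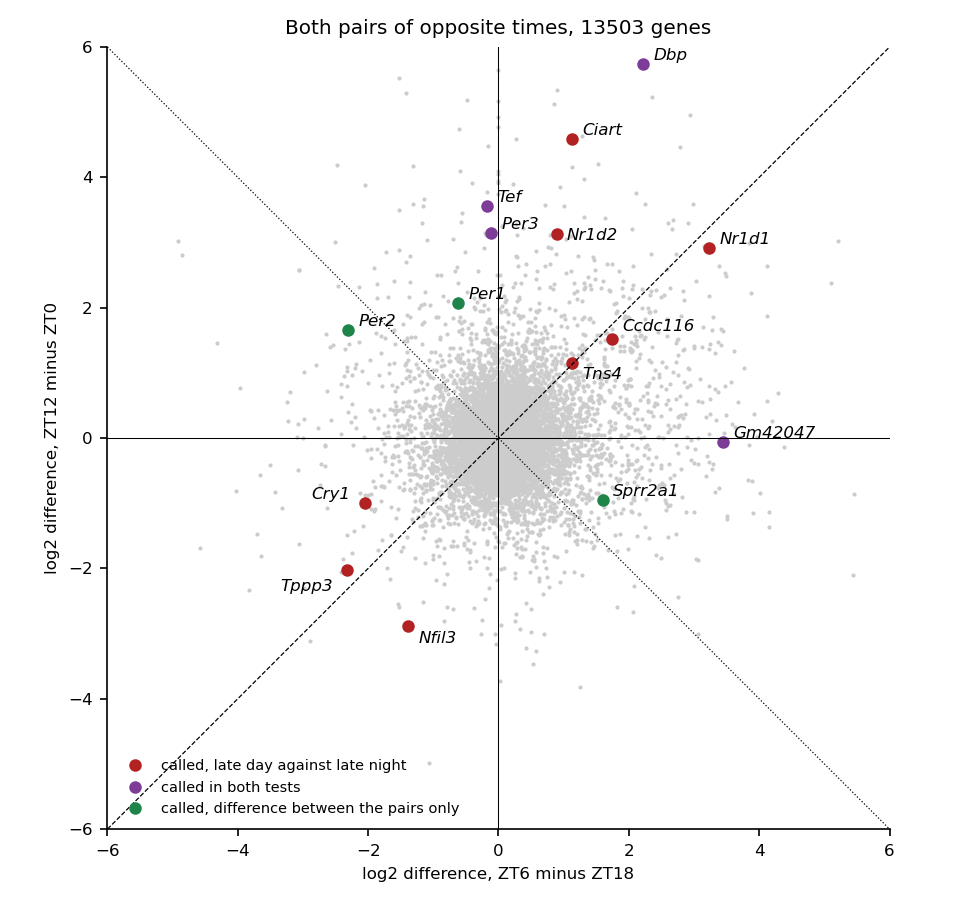
Log2 difference between ZT12 and ZT0 (vertical axis) against that between ZT6 and ZT18 (horizontal axis) for each gene tested, with called genes coloured and named where reported; 2 genes lie outside the axes. Nr1d1, Ccdc116, Tns4 and Tppp3 sit near the dashed line of equal differences, whereas Tef and Per3 sit near the vertical axis and Per2 near the dotted line of opposite differences.

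The genes of other processes were followed through lists chosen with earlier results of these data known. No gene of these lists or of the cell type markers was called by limma, and 20 were called by DESeq2, of which 1 was an endothelial and 1 a smooth muscle marker. The members of the lists are described by the share with an unadjusted p under 0.05, which was 4.44% of all genes in the direction of late day and 4.36% in that of late night, beside a median log2 difference over all genes of 0.01. In fits with libraries left out the share over all genes changed too and was lower in most of them. A smaller count in such a fit need not be particular to a list. The S phase list, of DNA replication, held the most such genes. Of 29 S phase genes, 28 had a lower mean in late day, 18 had an unadjusted p under 0.05 in that direction and 0 in the other, and the median log2 difference was -0.48. The libraries of 8 genes did not overlap, all higher in late night.

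Mcm10, a replication initiation factor, had 193 and 201 normalised counts at ZT6, 179 and 172 at ZT12, 281 and 328 at ZT18 and 274 and 342 at ZT0 (log2 difference -0.71, limma adjusted p 0.368). Uhrf1, which keeps DNA methylation through replication, had 363 to 468 in late day and 488 to 752 in late night (log2 difference -0.64). Mcm3, a subunit of the replicative helicase, had 245 to 345 in late day and 327 to 590 in late night, and these ranges overlapped. The list was lower in late day in both pairs, with medians of -0.66 for ZT6 minus ZT18 and -0.29 for ZT12 minus ZT0. The number of genes with an unadjusted p under 0.05 was 12 without ZT12 replicate 1 and ZT0 replicate 2 together, and 7, 9 and 10 without ZT12 replicate 1, ZT6 replicate 1 and ZT0 replicate 1, with medians of -0.40 to -0.52 over all libraries left out in turn.

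Mitotic genes had another shape. Their median log2 difference was 0.19 for ZT6 minus ZT18 and -0.77 for ZT12 minus ZT0, and in the pooled comparison 6 of 27 had an unadjusted p under 0.05, all lower in late day. This count was 1 without ZT0 replicate 1, 1 without ZT6 replicate 2 and 3 without ZT12 replicate 1, the last also with ZT0 replicate 2 left out. Aurkb, a kinase of chromosome segregation, had 280 and 209 normalised counts at ZT6, 183 and 186 at ZT12, 234 and 265 at ZT18 and 452 and 468 at ZT0 (log2 difference -0.68, limma adjusted p 0.376). Only the ZT0 libraries stood out. For Ttk and Cdca8, which act in the same process, the log2 differences were -0.63 and -0.48, and they were highest at ZT0 as well.

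Chaperones formed the second group with higher values in late night. Of 13 heat shock genes, 12 had a lower mean in late day, 7 with an unadjusted p under 0.05, and 5 did not overlap (median log2 difference -0.37). The median of the list was -0.65 for ZT6 minus ZT18 and -0.18 for ZT12 minus ZT0. Hsph1, of the HSP110 family, had 291 and 307 normalised counts at ZT6, 449 and 579 at ZT12, 916 and 1138 at ZT18 and 675 and 1081 at ZT0. Hsp90aa1, the inducible HSP90, had 2676 and 2851 at ZT6, 2543 and 3213 at ZT12, 6200 and 4865 at ZT18 and 4513 and 3601 at ZT0 (log2 difference -0.74, limma adjusted p 0.250). Hspa8, the constitutive HSP70, ranged from 14096 to 16019 in late day and from 20522 to 31837 in late night (log2 difference -0.66). In each of these 3 genes ZT18 was highest in its mean. The exception in the list was Hspb1, at 1.53, which had 0 to 30.0 normalised counts over the libraries. Without ZT12 replicate 1 and ZT0 replicate 2, 7 genes of the list again had an unadjusted p under 0.05 in this direction, and DESeq2 called 5 of the 13.

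Chaperones of the endoplasmic reticulum differed in part. Of 22 genes of the unfolded protein response, 5 had an unadjusted p under 0.05, all higher in late night. The median log2 difference of the list was -0.43 for ZT6 minus ZT18 and 0.03 for ZT12 minus ZT0. Hspa5, which encodes BiP, had 5128 to 6051 normalised counts in late day and 7099 to 9400 in late night (log2 difference -0.54, limma adjusted p 0.366). Creld2 had 478 to 733 against 966 to 1614 (-0.89), and Hyou1 had 878 to 1381 against 1267 to 2048 (-0.56). The transcription factors Xbp1, Atf4 and Atf6 differed by -0.08, -0.18 and 0.13. Cold-inducible RNA-binding genes lay on the other side. Rbm3 (log2 difference 0.48) and Srsf5 (0.40) had unadjusted p-values under 0.05, and Cirbp differed by 0.23. Without ZT12 replicate 1 and ZT0 replicate 2, 1 of these 3 genes had such a p, as was the case without ZT0 replicate 1, ZT6 replicate 1, ZT6 replicate 2, ZT12 replicate 1 or ZT12 replicate 2 alone.

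**Figure D3:**
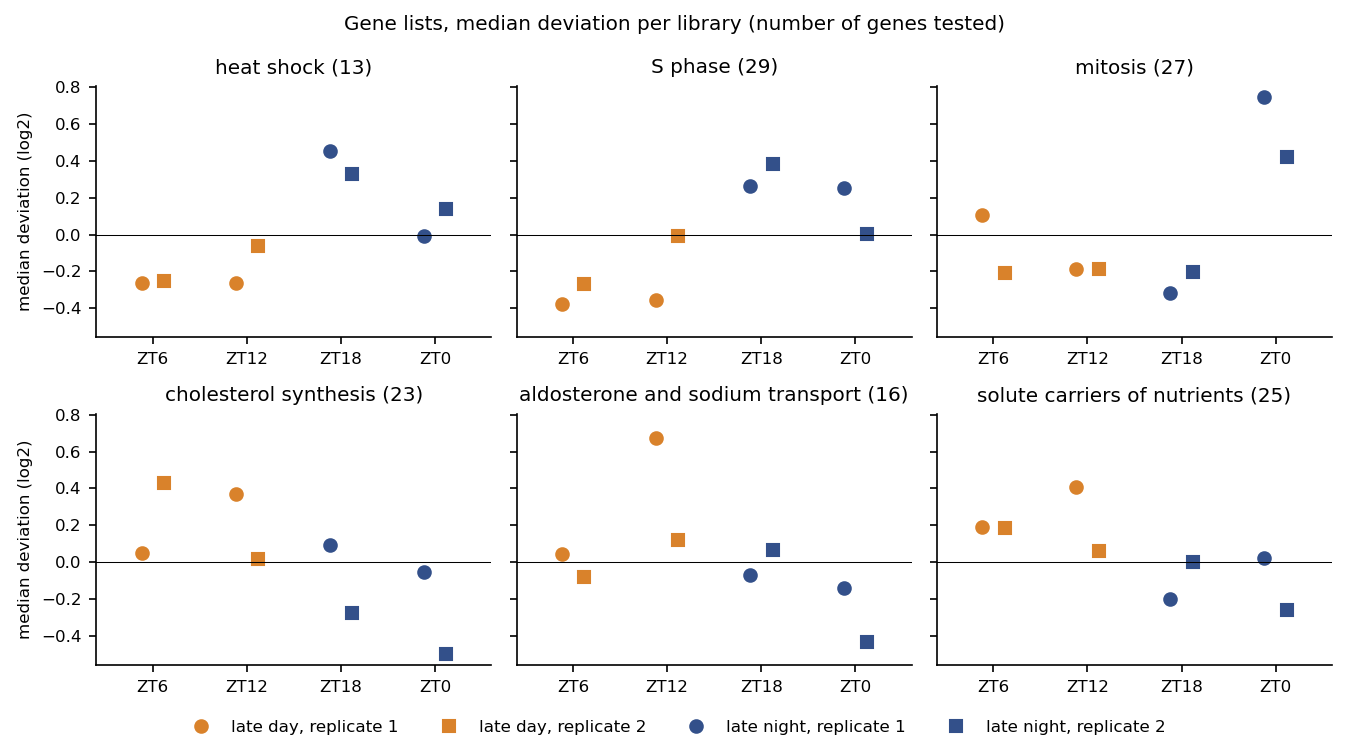
Median deviation of 6 gene lists in each library from the mean of the 8 libraries (log2 of normalised count + 1), with circles for replicate 1 and squares for replicate 2; orange is late day and blue late night. Heat shock and S phase genes lie lower in late day, mitotic genes are highest at ZT0 (0.74 and 0.42), and sodium transport genes reach 0.68 in ZT12 replicate 1.

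Genes of cholesterol synthesis and uptake were higher in late day. Of 23 genes, 22 had a higher mean, 13 had an unadjusted p under 0.05 and 4 did not overlap, with a median log2 difference of 0.46. Lss, which closes the sterol ring, had 1117 and 1593 normalised counts at ZT6, 1352 and 927 at ZT12, 1011 and 710 at ZT18 and 586 and 670 at ZT0 (log2 difference 0.75, limma adjusted p 0.376). Only ZT18 replicate 1 of late night reached the range of late day. Mvd, which makes isopentenyl diphosphate, had 835 to 1808 in late day and 741 to 1131 in late night (0.46), and Msmo1, a sterol demethylating oxidase, had 3343 to 4354 against 1766 to 3520.2 (0.59), both with overlap.

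The counts of this group changed with the libraries left out, and so did the counts over all genes. Its median was 0.40 without ZT6 replicate 2 and 0.35 without ZT0 replicate 2, each with 21 of 23 genes higher in late day. The number of its genes with an unadjusted p under 0.05 was 4 without ZT12 replicate 1 and ZT0 replicate 2 together, with a median of 0.22. Left out alone, ZT0 replicate 2 or ZT18 replicate 2 gave 4 such genes, ZT12 replicate 1 gave 3 and ZT6 replicate 2 gave 2, and a fit that dropped the mean-variance trend gave 3. Among genes of fatty acid synthesis, Acly, which supplies acetyl-CoA, differed by 0.49, Gpam by 0.59 and Fads1 by -0.44, with 2 of 17 genes at an unadjusted p under 0.05 in the direction of late day and 1 in the other.

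Of 16 genes of aldosterone response and sodium transport, 14 had a higher mean in late day, 4 of them with an unadjusted p under 0.05. The median log2 difference of the list was -0.08 for ZT6 minus ZT18 and 0.61 for ZT12 minus ZT0. Nr3c2, the mineralocorticoid receptor, had 3473 and 3213 normalised counts at ZT6, 3674 and 3221 at ZT12, 2193 and 2207 at ZT18 and 2162 and 1949 at ZT0. The groups were well apart and both pairs agreed in size, at 0.60 and 0.74, but the log2 difference of 0.67 (SE 0.11) was not called by limma (adjusted p 0.136) and was called by DESeq2 (adjusted p 8.91e-05). Slc9a3, the sodium-proton exchanger NHE3 of the brush border, had 7773 and 8096 at ZT6, 12298 and 9862 at ZT12, 9387 and 7955 at ZT18 and 4386 and 4351 at ZT0, so that its log2 difference of 0.61 came from ZT12 against ZT0 (1.33). Scnn1b, a subunit of the epithelial sodium channel, was of the same kind, at -0.10 and 1.27. The count of 4 was 2 without ZT6 replicate 1, ZT12 replicate 1 or ZT18 replicate 1, 8 without ZT18 replicate 2 and 2 without ZT12 replicate 1 and ZT0 replicate 2 together.

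Among 25 carriers of nutrients, 7 had an unadjusted p under 0.05 in the direction of late day and 1 in the other, and without ZT12 replicate 1 and ZT0 replicate 2 these counts were 3 and 1. Left out alone, ZT6 replicate 2 gave 3 in the direction of late day, and ZT0 replicate 2, ZT6 replicate 1 and ZT12 replicate 1 gave 4 each. Slc2a5, the fructose transporter, had 99.8 and 89.2 normalised counts at ZT6, 155 and 105 at ZT12, 41.9 and 37.8 at ZT18 and 8.94 and 33.6 at ZT0. It was low throughout and 4.03-fold higher in late day (log2 difference 2.01, SE 0.43, limma adjusted p 0.327). Slc6a14, a carrier of neutral and basic amino acids, had 15589 to 22540 in late day and 8937 to 13472 in late night (0.73), and Slc40a1, the iron exporter ferroportin, had 5663 to 7233 against an overlapping 3157 to 6071 (0.69).

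Genes that answer to glucocorticoids did not share a direction. Sgk1, a kinase that both corticosteroid receptors induce, had 2622 and 2832 normalised counts at ZT6, 4265 and 6942 at ZT12, 7944 and 9421 at ZT18 and 3760 and 4285 at ZT0. It was lowest at ZT6 and highest at ZT18, with a log2 difference of -0.61 (SE 0.17, limma adjusted p 0.395). Tsc22d3, which encodes GILZ, was also highest at ZT18 (2412 and 1705) and differed by -0.69, whereas Klf9 had 1492 to 1980 in late day against 917 to 1325 in late night (0.51). Of 14 genes, 1 had an unadjusted p under 0.05 in the direction of late day and 3 in that of late night, and 2 and 3 without ZT12 replicate 1 and ZT0 replicate 2. Of 10513 genes tested that had a RefSeq promoter, 1 carried the glucocorticoid element in its promoter, and this was Sgk1, whose stretch is printed above.

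Early response genes were lower in late day where they differed. Jun had 1463 to 2438 normalised counts against 2607 to 3100 in late night (log2 difference -0.53), Myc 286 to 351 against 410 to 541 (-0.52), and Fosb 63.1 to 159 against 109 to 343 (-0.94). Of 17 genes, 4 had an unadjusted p under 0.05, with 2 without ZT12 replicate 1, alone or with ZT0 replicate 2. Genes of cell death differed little in the pooled comparison, in which differences of opposite sign in the pairs cancel. A lower mean in late day was found for 11 of 14 BCL2 family genes and for 8 of 15 of the caspases and p53. The medians of these lists were -0.17 and -0.03. Bok, of the BCL2 family, was lower in late day by -0.79 through the ZT12 libraries (180 and 252, against 445 to 752 in the other 6), and Casp1 had 3175 to 3798 against 2468 to 2629 (0.39). They were the only genes with an unadjusted p under 0.05 among 14 of the BCL2 family and 15 of the caspases and p53.

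**Figure D4:**
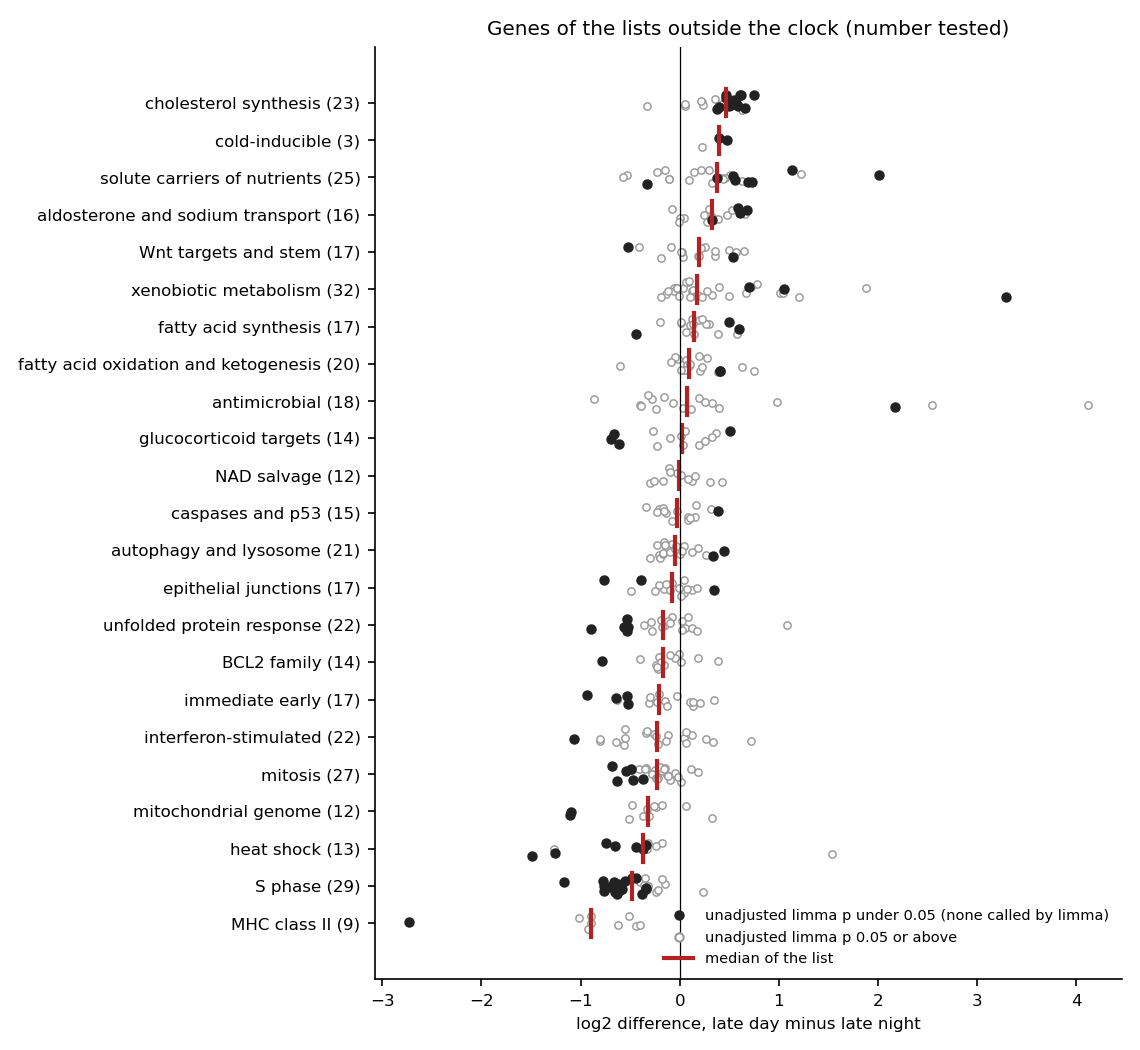
Log2 difference of late day minus late night for each gene of the lists outside the clock, ordered by the median (red bar); filled points have an unadjusted limma p under 0.05 and open points do not. Limma called none of them, while DESeq2 called some, among them 5 of the 13 heat shock genes. S phase and heat shock genes lie to the left with medians of -0.48 and -0.37, and cholesterol synthesis genes to the right with 0.46, while the MHC class II genes lie lowest at -0.89, almost all with open points.

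The remaining lists held few genes with an unadjusted p under 0.05, and these counts changed with single libraries. With all libraries, 3 of 32 xenobiotic and 2 of 20 fatty acid oxidation genes had such a p, all in the direction of late day. Without ZT18 replicate 2 more genes of these lists did, and so did more of all genes tested. In the Wnt and stem cell list, Rnf43, a negative regulator of Wnt signalling, had 648 to 977 normalised counts in late day and 518 to 577 in late night (log2 difference 0.53). Myc, given above and also in this list, had such a p in the direction of late night (-0.52). In fatty acid oxidation, Slc25a20 and Acadl had higher values in late day in every library, each with a log2 difference of 0.40. Cldn8 (-0.76) and Cldn4 (-0.39), claudins of tight junctions, had a lower mean in late day and Tjp1 a higher one (0.35). Nos2, the inducible nitric oxide synthase, had 175 and 248 at ZT6 and 64.6 and 42.7 at ZT12, against 51.3 and 29.0 at ZT18 and 14.9 and 11.2 at ZT0 (2.17, limma adjusted p 0.134). In xenobiotic metabolism, Cyp2f2, Abcb1a and Abcc2 differed by 1.05, 0.70 and 3.29, the last with 1 late night library at 0, in autophagy Wipi1 and Lamp1 by 0.44 and 0.33, and among interferon-stimulated genes Bst2 by -1.07. No gene of NAD salvage had an unadjusted p under 0.05. In the mitochondrial genome, mt-Co2 and mt-Co3 both differed by -1.10, with ZT12 low, and the other 10 genes had an unadjusted p of 0.05 or above. Their means over the libraries were only 183 and 170 normalised counts for mt-Co2 and mt-Co3. The reads of mt-Co3 are uncertain, as it shares its strand with the overlapping mt-Atp6, and its ZT18 libraries had 355 and 112. All 9 MHC class II genes had a lower mean in late day, with a median log2 difference of -0.89, and 1 had an unadjusted p under 0.05. The median was -1.76 with 7 such genes without ZT0 replicate 1, 0.04 without ZT0 replicate 2, and 0.18 without ZT12 replicate 1 and ZT0 replicate 2.

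Markers of other cell types differed between the groups as well. Endothelial markers summed to 287 to 572 normalised counts in late day and 74.8 to 245 in late night, without overlap, and Pecam1 had 112 to 271 against 24.8 to 103 (log2 difference 1.65, SE 0.25, limma adjusted p 0.0800). All 8 fibroblast and all 8 smooth muscle markers tested had a higher mean in late day, with medians of 1.47 and 2.10. For fibroblasts 4 of 8 were higher, with medians of 0.41 and 0.49, without ZT0 replicate 1 or ZT12 replicate 1, and the median was 2.53 and 2.54 without ZT0 replicate 2 or ZT12 replicate 2. For smooth muscle it was 1.13 without ZT12 replicate 1, and all 8 were higher whichever library was left out. The smooth muscle difference came from ZT12 against ZT0, with a median of 5.16, and between ZT6 and ZT18 the median was -0.19. Sums of these markers overlapped, at 589 to 5682 normalised counts in late day and 459 to 1026 in late night. Myh11 reached 1662 in ZT12 replicate 1 and 80.7 in ZT12 replicate 2, against 1.71 to 13.1 elsewhere. Enteroendocrine markers had a median of 0.69, with 1 of 10 (Insl5, 0.73) at an unadjusted p under 0.05. Their median deviation was -0.65 and 0.47 in the ZT0 libraries and -1.20 and 0.42 at ZT18, against 0.07 to 0.96 in late day. Without ZT0 replicate 1 the median difference was 0.48 with 8 of 10 higher, and without ZT0 replicate 2 it was 1.07. The medians of the epithelial, colonocyte and goblet lists were 0.02, -0.05 and -0.02, and Spdef, a factor of goblet cells, had a log2 difference of -0.50. The part of these cell types in the gene groups above was not tested.

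**Figure D5:**
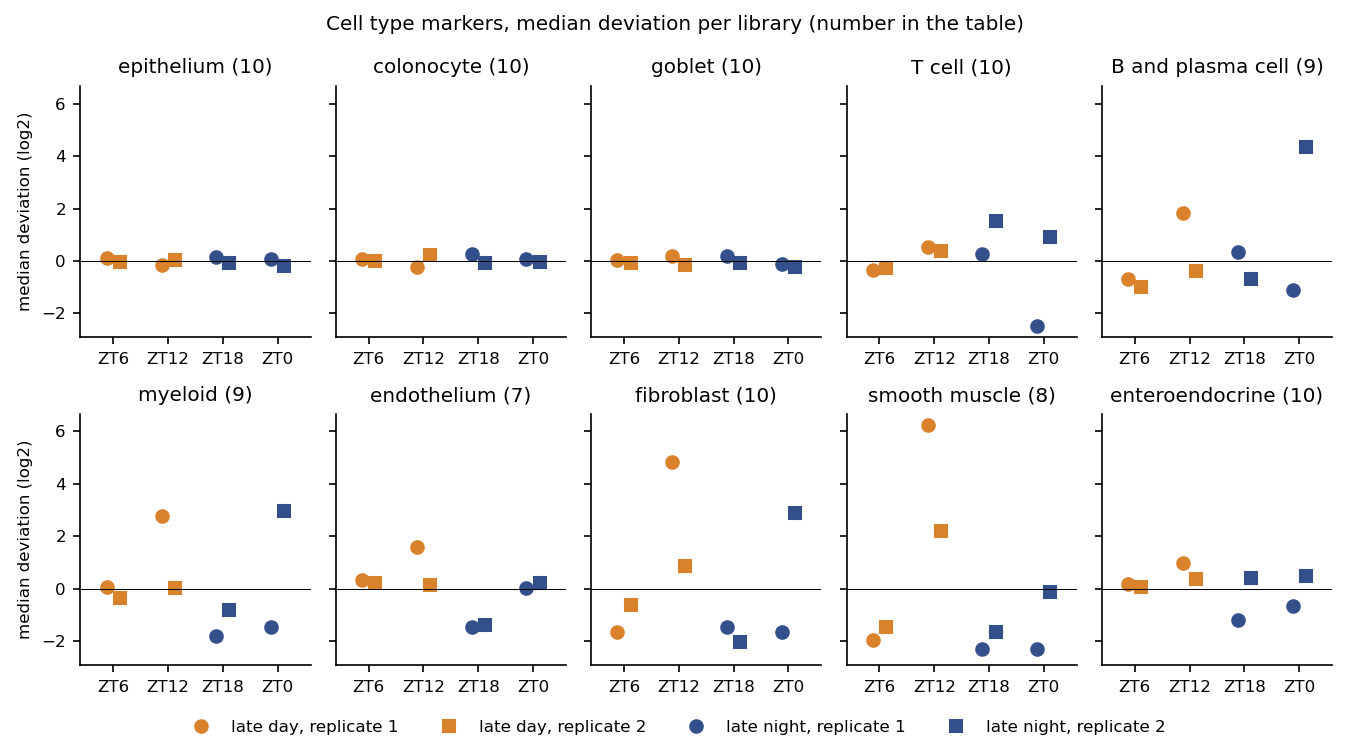
Median deviation of marker lists in each library from the mean of the 8 libraries (log2 of normalised count + 1), with circles for replicate 1 and squares for replicate 2; orange is late day and blue late night. Epithelial, colonocyte and goblet markers stay near 0, fibroblast and smooth muscle markers reach 4.84 and 6.24 in ZT12 replicate 1, and B and plasma cell markers reach 4.34 in ZT0 replicate 2.

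Promoter motifs were counted on both strands as a description. The E-box CACGTG was present in the promoters of 44 of 293 genes that were higher in late day without overlap (15%) and of 44 of 291 that were higher in late night (15.1%), beside 11.5% of the 10513 genes tested and 8.09% of all 27025 genes of the promoter table. The D-box (TTATGTAA or TTACGTAA) was in 1.37% and 2.06% of these groups and in 0.856% of the genes tested. For the ROR element (TAGGTCA or TGGGTCA) the shares were 6.14%, 7.56% and 6.34%, and for the cyclic AMP element TGACGTCA 1.71%, 3.09% and 3.49%. Of the called genes, 7 of 9 higher in late day and 2 of 4 higher in late night had a promoter in the table. Ciart and Tef among the former and Cry1 among the latter carried the E-box, so that it was found on both sides of the comparison.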

How the data were processed

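Per the methods section, the authors aligned paired-end reads with STAR to GRCm38 and used DESeq2. The annotation and strand use in counting are not given in the sources used here. The authors deposited 1 table of 14247 genes whose 8 library columns hold a signal, the read count divided by 1 size factor per library (normalised count). All values were whole multiples of 1 read within 0.01, so whole reads were recovered. Other columns hold a comparison by the authors and were not used. A count of 0 allows up to 3 reads, 2.41 to 3.70 normalised counts, for counting error only. Of the gene IDs, 14244 matched GENCODE M21.

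Genes with a mean of at least 10 entered limma 3.58.1 in R 4.3.3 with trended eBayes. Its input was log2(normalised count + 1), which understates changes of low genes, and its model had a mean per time point. The contrast was (ZT6 + ZT12)/2 minus (ZT18 + ZT0)/2, adjusted by the Benjamini-Hochberg method over 13503 genes. The code was tested on simulated reads with 200 changed genes. There limma, edgeR and DESeq2 called 14, 13 and 51 unchanged genes. For the difference between the pairs, where no gene was changed, they called 0, 0 and 15. Library measures were tested by exact permutation. edgeR 4.0.16 and DESeq2 1.42.0 on recovered reads, other scalings, pseudocounts, filters and libraries left out were alternatives.

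The members and lists were chosen with earlier results of these data known. Genes were named by rule: all clock genes; called genes without overlap, filled to 10 per direction by the smallest p; and up to 3 members per list by p, given where p was under 0.05. Some items are not reported here, though counts include them, and the next list member by p was then named. Called genes with overlap, genes called between the pairs, and Hspb1, Xbp1, Atf4 and Atf6 were named after their values were seen.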

Additional observations from a re-analysis of the deposited data

Results flagged for a closer look

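Single libraries that stood apart within their group of 4 (Dixon's test at 95%) were found in 11 of 204 groups examined, where chance flags about 1 in 20. In late night, ZT0 replicate 2 was lowest for Nr3c2 (1949 normalised counts) and highest for Rbm3 (1272) and Myl9 (5.60). For Myl9 the rest of late night was at 0, so any value above 0 would have been flagged. In the same group, ZT0 replicate 1 was lowest for Slc2a5 (8.94), ZT18 replicate 1 was highest for Creld2 (1614) and lowest for Srsf5 (3035), and ZT18 replicate 2 was lowest for Vwf (20.9). In late day, ZT12 replicate 1 was highest for Slc6a14 (22540), for the myeloid markers (median log2 deviation 2.77) and for the endothelial markers (1.59). The fibroblast markers of ZT0 replicate 2 stood at 2.89 within late night.

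A limma test of the difference itself called 8 genes for which ZT6 against ZT18 was unlike ZT12 against ZT0, and 7 of them are given here. On the log2 scale the first less the second was -3.97 for Per2, -3.73 for Tef, -3.52 for Dbp, -3.26 for Per3 and -2.69 for Per1, and 3.51 for Gm42047 and 2.55 for Sprr2a1 (limma adjusted p 0.0145 to 0.0460).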

How the results depend on the processing

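Each time point had 2 libraries. Late day against late night gave 13 genes, the difference between the pairs 8 and the clock lists 9. These counts were 1, 0 and 1 without the mean-variance trend (1077, 970 and 13 at an unadjusted p under 0.05), and 6, 1 and 5 with edgeR. With 2 group means, 6 genes and 3 clock genes were called. DESeq2 called 104 genes and 68 between the pairs. Between the pairs, quantile normalisation and a pseudocount of 0.1 gave 5 each. Without ZT12 replicate 1 and ZT0 replicate 2 the counts were 0, 4 and 0 (679, 721 and 13 at an unadjusted p under 0.05), and 0 of the 4 were among the 8. With 1 library left out they ranged from 3 (ZT6 replicate 1) to 16 (ZT0 replicate 1), from 0 (ZT6 replicate 1, ZT6 replicate 2 or ZT12 replicate 2, with 441, 500 and 1173 at an unadjusted p under 0.05) to 12 (ZT0 replicate 1), and from 3 (ZT6 replicate 1) to 7 (ZT0 replicate 1). For the first count the fits without ZT6 replicate 2, ZT12 replicate 2, ZT12 replicate 1, and ZT0 replicate 2 or ZT18 replicate 1 gave 4, 5, 7 and 8. Such a time point has 1 library, assumed to vary like the others. The cause was not tested. Of the 22 alternatives, Dbp was called in 21, Nr1d1 in 20, Nr1d2 and Cry1 in 19, Ccdc116 in 16, Ciart in 15, Tef in 14, Tns4 in 12, Tppp3 in 11, Gm42047 in 10, Per3 in 9 and Nfil3 in 8, and none of these 12 changed sign.

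Signs turned for 4 clock genes named with differences near 0. Without ZT12 replicate 1 and ZT0 replicate 2, Csnk1e was 0.0912, Cry2 0.102 and Clock -0.147. Without ZT0 replicate 2 alone they were 0.0856, 0.107 and -0.172, and without ZT0 replicate 1 Csnk1e and Clock reached -0.371 and 0.190. Cry2 was also 0.0151 without ZT6 replicate 1 and 0.0539 without ZT18 replicate 1. Clock was -0.00504 with edgeR, -0.0126 with DESeq2 and -0.0154 without ZT12 replicate 2. Rora was -0.213 with quantile normalisation, -0.168, -0.255, -0.182 and -0.105 without ZT0 replicate 1, ZT6 replicate 2, ZT12 replicate 1 and ZT18 replicate 2, and 0.345 without ZT6 replicate 1.

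Replicate numbers did not pair the libraries, with correlations of same-numbered libraries from -0.29 to 0.22 over 6 comparisons. In a fit with a block for the replicate number, 14 genes were called for late day against late night, 7 between the pairs and 8 in the clock lists, of which 12, 6 and 8 were among those called without it.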

Other observations

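DESeq2 on the recovered reads called 104 genes, of which 12 were clock genes, 20 belonged to other lists and 72 to none. The libraries of 71 did not overlap, as was the case for 5.37% of all genes tested. A call on the same libraries favours such genes, so this is no separate support. Among the 104, a DESeq2 log2 difference reached 13.16 where the limma adjusted p was 0.754. The following genes outside the lists were chosen from the 104 after their values were seen, and limma called none of them. Maoa, which encodes monoamine oxidase A, had 18893 to 20027 normalised counts in late day and 10916 to 14078 in late night (log2 difference 0.62, limma adjusted p 0.366), with 0.63 for ZT6 minus ZT18 and 0.62 for ZT12 minus ZT0. Slc36a1, a proton-coupled amino acid carrier, had 2250 to 5235 in late day and 1128 to 1972 in late night (1.18, limma adjusted p 0.250). F3, which encodes tissue factor, had 438 to 829 against 130 to 371 (1.42, limma adjusted p 0.304). Pdk1, a kinase that inhibits pyruvate dehydrogenase, had 1268 to 1691 against 845 to 1203 (0.64, limma adjusted p 0.310).

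On the side of late night, Stip1, a cochaperone that links HSP70 with HSP90, had 759 to 932 normalised counts in late day and 1139 to 1585 in late night (log2 difference -0.64, limma adjusted p 0.250). Cdc7, a kinase that starts DNA replication, had 35.9 to 66.5 against 107 to 229 (-1.57, limma adjusted p 0.366), and Tubb5, a beta tubulin, had 1694 to 2556 against 3123 to 3608 (-0.71, limma adjusted p 0.304). Dusp6, a phosphatase that acts on ERK, had 581 to 1116 against 1407 to 2270 (-1.002, limma adjusted p 0.292). The libraries of each of these 8 genes did not overlap between the groups. The genes were picked from the called ones with their values known, so this is no separate support.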
